A study of Mus musculus with 7 samples.

Results

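The miR-148 and miR-152 family is described here across CD8+ T cells of newborn and adult mice. Its 4 members, out of 1978 mature microRNA (miRNA) names in the deposited table, were taken by name: mmu-miR-148a-3p, mmu-miR-148a-5p, mmu-miR-148b-3p and mmu-miR-152-3p, written below without the species prefix. The family was chosen by measured values of these same libraries, above all the age difference of miR-148a-3p, so every neonatal against adult value of its arms below is a description and carries no test. CD8+ T cells came from the spleen of gBT-I mice, whose T cells carry one transgenic receptor, for a herpes simplex virus peptide. All 4 groups share that transgene, and it limits the range of receptors that they carry. Cells were sorted by CD44 and CD122 into CD44hiCD122hi cells, known as virtual memory (VM) cells because they show memory markers without having met antigen, and CD44loCD122lo true naive (TN) cells. The groups were neonatal VM (2 libraries), neonatal TN (1 library), adult VM (2 libraries) and adult TN (2 libraries). The sources used here give no age in days, and do not say whether animals were pooled or whether replicates came from separate animals, so a p-value here is set by the variation among these libraries, and that variation may be technical.

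A miRNA binds its targets mainly through its seed, bases 2 to 8 from the 5′ end, and members that share a seed can repress the same messages. The miR-148 and miR-152 family is known as a repressor of the DNA methyltransferase Dnmt1, a link described in human CD4+ T cells in lupus. In mice, miR-148a is known to help chronically stimulated Th1 cells survive by repressing the death factor Bim, and to let immature B cells survive that would otherwise be deleted. Each hairpin yields a 3p arm, the usual guide in this family, and a 5p arm, the usual passenger.

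The mature sequences show what the members share, with the seed in capitals (RefSeq, GRCm38.p6, 5′ to 3′).
miR-148a-3p: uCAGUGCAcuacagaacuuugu
miR-148b-3p: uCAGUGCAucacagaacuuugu
miR-152-3p: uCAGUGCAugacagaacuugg
miR-148a-5p: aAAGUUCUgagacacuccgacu
miR-148b-5p: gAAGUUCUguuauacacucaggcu
All 3 of the 3p arms carry the seed CAGUGCA, and no other of the 1738 mature entries of the RefSeq miRNA table does. MiR-148a-5p has another seed, AAGUUCU, so it belongs to the family by its hairpin and not by its seed, and it shares that seed with miR-148b-5p. Counted from 1 at the 5′ end, miR-148a-3p differs from miR-148b-3p by 2 bases, C9U and U10C, with 20 of 22 bases identical. MiR-152-3p differs from miR-148a-3p by C9U, U10G and U20G. A read of one member with sequencing errors could therefore be counted for another. Counts of the 4 members were whole in every library but adult TN replicate 2, where both miR-148a-3p (844.5) and miR-148b-3p (2788.5) held a fractional count.

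The hairpins of miR-148a and miR-148b show how the arms lie, with the 5p arm and then the 3p arm in capitals.
Mir148a: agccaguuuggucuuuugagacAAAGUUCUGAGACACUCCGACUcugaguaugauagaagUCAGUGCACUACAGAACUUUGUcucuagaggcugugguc
Mir148b: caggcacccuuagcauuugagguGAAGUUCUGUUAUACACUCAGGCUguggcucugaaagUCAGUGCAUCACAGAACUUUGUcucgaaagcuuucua
The 3 genes lie on different chromosomes. Mir148a (chr6:51269812-51269910, minus strand, GRCm38) lies in no annotated host gene, and the nearest gene is the lincRNA Gm32479, 13622 bases away. Mir148b (chr15:103285125-103285221, plus strand) lies in an intron of Copz1 and Mir152 (chr11:96850393-96850465, plus strand) in an intron of Copz2, both on the strand of the host. Copz1 and Copz2 encode zeta subunits of the COPI coat, which carries vesicles back from the Golgi.

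Library totals lay between 1577031 and 3278451 counts. The T cell label was checked with miR-150-5p, miR-142a-3p, miR-142a-5p, miR-181a-5p and miR-155-5p, all present in every library. Together they reached 162523 to 283019 CPM (the count scaled to the size of the library) in neonatal and 339323 to 587020 CPM in adult libraries. Whether these 5 tell T cells from other blood cells was not tested. A miRNA was tested if 2 or more libraries reached 10 CPM, which 288 did, 3 members among them. MiR-152-3p missed that filter. MiR-148a-5p passed it only through the neonatal libraries, where it was high. CPM values are scaled by TMM factors unless given per library total, which correct library sizes for make-up.

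MiR-148a-3p stood several times higher in neonatal than in adult cells of both subsets. It was the most abundant member in both neonatal VM libraries, and near parity with miR-148b-3p in neonatal TN (10616 and 10562 counts). It had 3232 and 3113 CPM in neonatal VM, 3305 CPM in neonatal TN, 569.9 and 728 CPM in adult VM, and 389 and 361 CPM in adult TN. The 3 neonatal libraries lay close together, and the lowest of them was 4.28-fold above the highest adult library. How many of the 288 tested miRNAs separate the ages so fully was not counted, here or for the arms and sums below. By the age test 26.4% of all miRNAs were called higher in neonatal cells. As counts, these levels rest on 6533, 11909 and 10616 reads in the neonatal libraries and on 721 to 2104 in the adult ones. Its rank among all miRNAs of a library was 35 to 37 in neonatal and 65 to 88 in adult libraries. The fitted age difference over both subsets was a log2 fold change of 2.64 (SE 0.22), which is 6.23-fold, where the median of all 288 tested miRNAs was -0.05. The fitted difference was 3.14 (SE 0.23) in TN cells and 2.29 (SE 0.20) in VM cells on the log2 scale. By group mean, miR-148a-3p ran in the order neonatal TN, neonatal VM (3173 ± 84.0 CPM, SD, n = 2), adult VM (649 ± 112 CPM, n = 2) and adult TN (375 ± 19.7 CPM, n = 2). Between the neonatal VM and neonatal TN groups the gap was of the order of the spread between the 2 neonatal VM libraries.

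**Figure D1:**
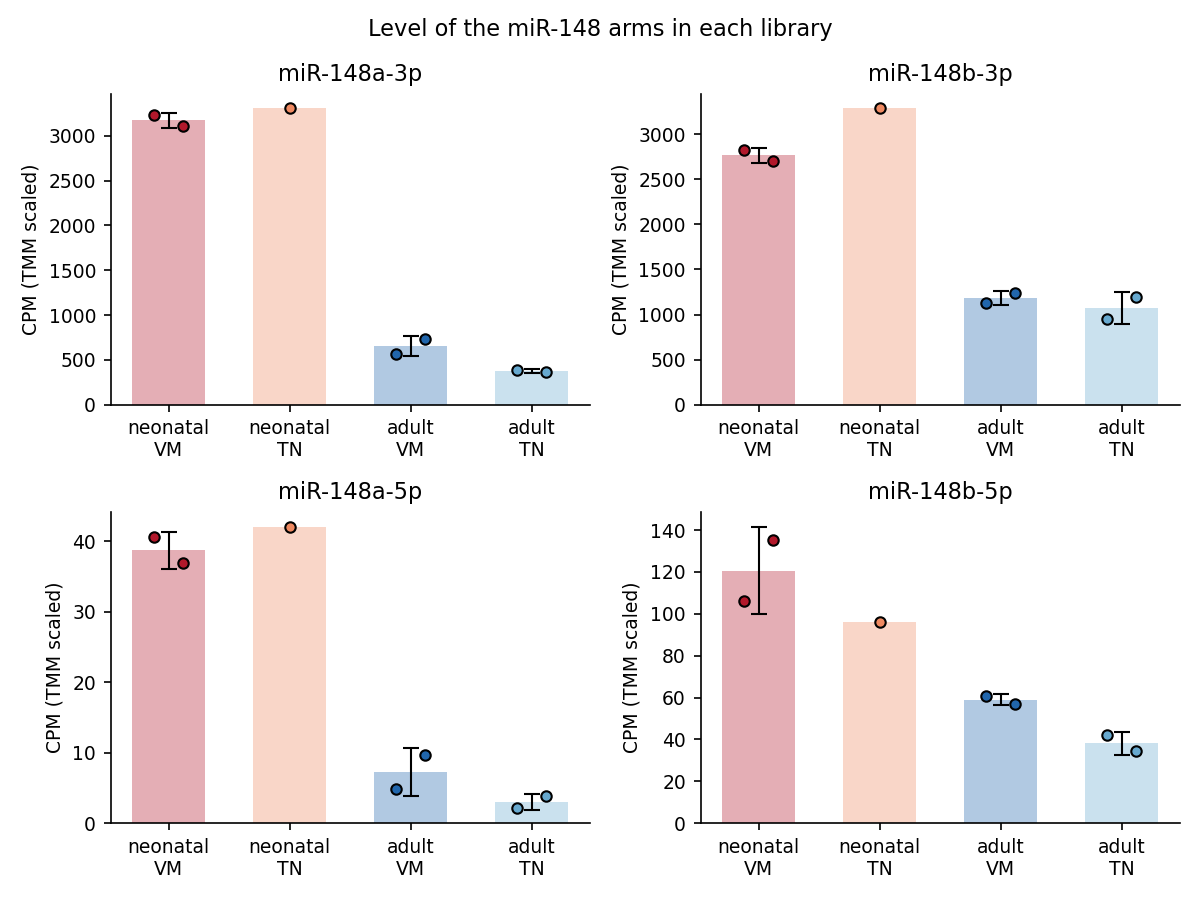
Level of the 4 detected arms of miR-148a and miR-148b, in CPM scaled by TMM factors, in neonatal VM, neonatal TN, adult VM and adult TN cells. Points are libraries, bars are group means and error bars are the SD where a group has 2 libraries. In each panel all 3 neonatal libraries lie above all 4 adult ones. How many of all tested miRNAs separate the ages in this way was not counted.

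MiR-148b-3p, the Copz1 intron member with the same seed, was also higher in neonatal cells, by less. Its levels were 2827 and 2706 CPM in neonatal VM, 3289 CPM in neonatal TN, 1127 and 1238 CPM in adult VM, and 948 and 1194 CPM in adult TN. Neonatal and adult libraries did not overlap, while adult VM and adult TN libraries did. The fitted age difference was a log2 fold change of 1.39 (SE 0.18), or 2.61-fold, over both subsets, 1.62 (SE 0.23) in TN and 1.23 (SE 0.20) in VM cells. The group means came in the order neonatal TN, neonatal VM (2766 ± 85.4 CPM, n = 2), adult VM (1183 ± 78.8 CPM, n = 2) and adult TN (1071 ± 174 CPM, n = 2), and the last pair differed by less than the SD of adult TN. The single neonatal TN library lay above both neonatal VM libraries.

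MiR-148a-5p, the passenger arm of miR-148a, was scarce and followed its 3p arm. It had 40.6 and 36.9 CPM in neonatal VM, 42.0 CPM in neonatal TN, 4.83 and 9.69 CPM in adult VM, and 2.16 and 3.85 CPM in adult TN. The adult values are 4 to 28 counts a library, and the neonatal values 82 to 141. Its fitted age difference over both subsets was a log2 fold change of 2.90 (SE 0.38), and the lowest neonatal library was 3.81-fold above the highest adult one.

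MiR-152-3p, the Copz2 intron member, was at the edge of detection in all groups. It had 0 and 1 counts in the neonatal VM libraries, 4 in neonatal TN, 0 and 3 in adult VM, and 0 and 1 in adult TN. A count of 0 allows up to 1.90 CPM in neonatal VM replicate 1, 1.11 CPM in adult VM replicate 1 and 1.46 CPM in adult TN replicate 1 (3 counts of the library total, for counting error only). No difference between groups was detectable at this depth, and no fold change is given. Its 5p arm, miR-152-5p, had 5 counts in adult VM replicate 2 and 0 in the other 6 libraries.

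The 3p arms were summed to give the amount of the shared seed. Together they took 0.777% and 0.740% of all counts in neonatal VM, 0.710% in neonatal TN, 0.155% and 0.173% in adult VM, and 0.120% and 0.121% in adult TN. These shares of the library total use no scaling factor, and the neonatal libraries again lay above all adult ones. On the TMM scale the summed level was 5939 ± 169 CPM in neonatal VM, 6595 CPM in neonatal TN, 1832 ± 191 CPM in adult VM and 1447 ± 154 CPM in adult TN (SD, n = 2 where given). MiR-152-3p held at most 0.0528% of the sum in any library, so the summed level is that of miR-148a-3p and miR-148b-3p.

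The make-up of the family differed between the groups as well. MiR-148a-3p made up 53.3% and 53.5% of the 3p counts in neonatal VM, 50.1% in neonatal TN, 33.6% and 37.0% in adult VM, and 29.1% and 23.2% in adult TN. The 95% Wilson intervals were 52.5 to 54.2% and 52.8 to 54.2% in neonatal VM, 49.4 to 50.8% in neonatal TN, 32.2 to 35.0% and 35.8 to 38.3% in adult VM, and 27.4 to 30.9% and 21.9 to 24.6% in adult TN. Such intervals hold counting error alone and leave out variation between libraries. Reads that lack molecular identifiers may be copies of 1 molecule, so the intervals may be too narrow even for counting error. So miR-148b-3p was the larger member in all 4 adult libraries, and the pair stood near parity in neonatal ones.

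**Figure D2:**
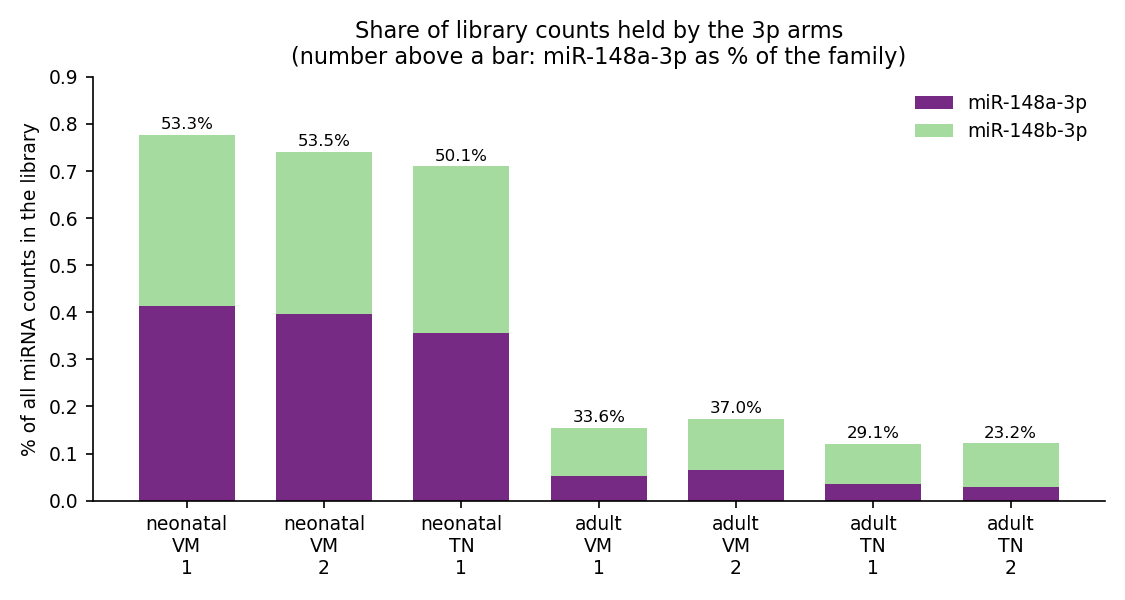
Share of all miRNA counts in each library, in percent, held by miR-148a-3p and miR-148b-3p, with the share of miR-148a-3p within the family printed above each bar. Neonatal libraries reach 0.710 to 0.777% and adult ones 0.120 to 0.173%; miR-152-3p is too rare to be seen.

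The ratio of miR-148a-3p to miR-148b-3p within a library needs no scaling between libraries. It was 1.14 and 1.15 in neonatal VM and 1.01 in neonatal TN, and 0.506 and 0.588 in adult VM and 0.411 and 0.303 in adult TN. At each age the VM libraries had the higher ratio, with no overlap with TN. How many pairs of miRNAs separate the subsets so fully was not counted, and neonatal TN gave a single value. The means were 1.15 ± 0.00502 in neonatal VM against the single value in neonatal TN, and 0.547 ± 0.0580 in adult VM against 0.357 ± 0.0763 in adult TN (SD, n = 2). In adult cells the gap between VM and TN was larger than either SD, but each SD rests on 2 libraries. No test was made on the ratio, and no subset difference is read from it.

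The arms were compared within each hairpin. The 5p arm made up 1.24% and 1.17% of miR-148a counts in neonatal VM and 1.26% in neonatal TN, against 0.841% and 1.31% in adult VM and 0.552% and 1.06% in adult TN. The widest Wilson interval, in adult TN replicate 2, ran from 0.556 to 1.99%, and the intervals of all 7 libraries overlapped, so no shift between the arms of miR-148a was detectable at this depth. For miR-148b the 5p arm made up 3.61% and 4.77% in neonatal VM, 2.83% in neonatal TN, 5.12% and 4.41% in adult VM, and 4.25% and 2.79% in adult TN. At each age the VM libraries lay above the TN libraries in this share, but in adult cells the lowest VM and the highest TN value had overlapping Wilson intervals, 3.79 to 5.11% and 3.42 to 5.28%. The intervals of the 2 neonatal VM replicates did not overlap each other, and those of the adult TN replicates met only at their ends. Neonatal and adult libraries overlapped, and no test was made on the arm share. How many other hairpins separate the subsets in this share was not counted. MiR-148b-5p itself had 106 and 135 CPM in neonatal VM, 95.9 CPM in neonatal TN, 60.8 and 57.1 CPM in adult VM, and 42.1 and 34.3 CPM in adult TN. The neonatal libraries lay above the adult ones here too, and in VM against TN its log2 fold change was 0.63 (SE 0.27, edgeR adjusted p = 0.0818) in adult cells and 0.33 (SE 0.32, edgeR adjusted p = 0.593) in neonatal cells.

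**Figure D3:**
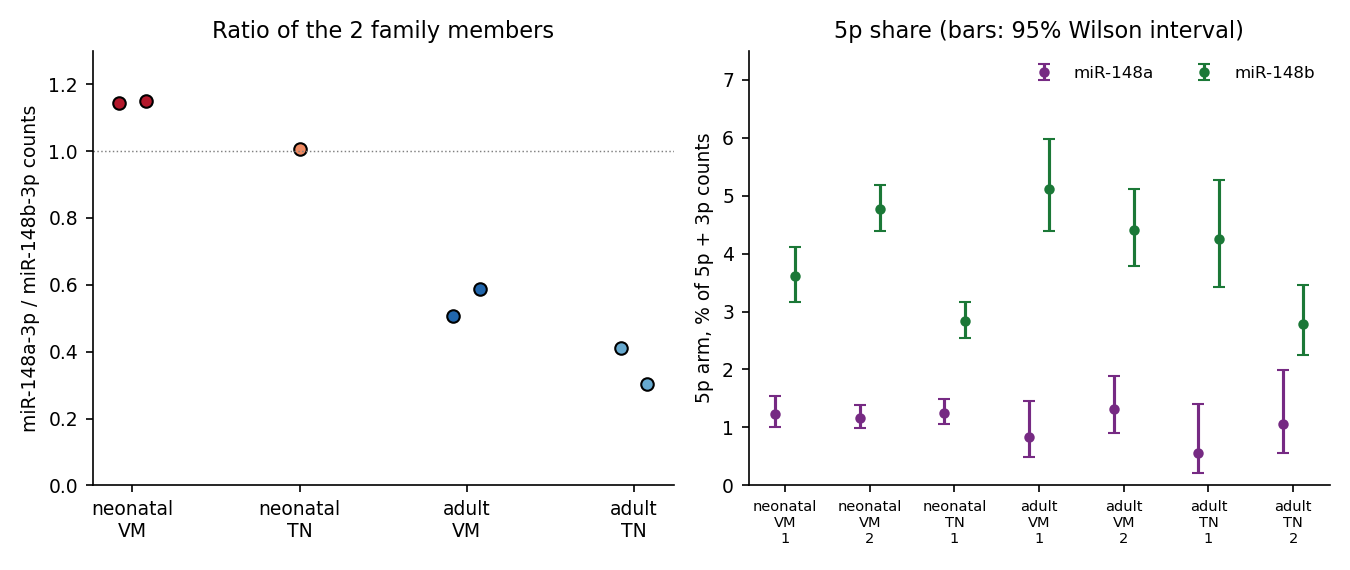
Left, ratio of miR-148a-3p to miR-148b-3p counts in each library by group, which is 1.01 to 1.15 in neonatal and 0.303 to 0.588 in adult libraries. Right, the 5p arm as percent of both arms of miR-148a and of miR-148b in each library with 95% Wilson intervals; the miR-148a intervals overlap across all libraries.

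The subsets were compared by edgeR's quasi-likelihood test with Benjamini-Hochberg adjustment over all 288 miRNAs. In adult cells miR-148a-3p was 1.73-fold higher in VM than in TN cells (log2 fold change 0.79, SE 0.20, 95% interval 0.36 to 1.22, edgeR adjusted p = 0.0086), and both VM libraries lay above both TN libraries. It was the 1 member of 3 tested that passed; at the same threshold 38.9% of all miRNAs were called in this comparison and 23.3% were called higher, so the members' share is near that background. The call was lost without adult TN replicate 1 (log2 fold change 0.72, edgeR adjusted p = 0.0912) and without replicate 2 (0.69, edgeR adjusted p = 0.139), with a fold of similar size. Without adult VM replicate 2 the log2 fold change was 0.48. Each fit without an adult library leaves its group with 1 library that is assumed to vary like the others, so no call is read from it. With each library left out in turn, the log2 fold change ranged from 0.48 to 0.92. MiR-148a-5p had a log2 fold change of 1.24 (SE 0.53, edgeR adjusted p = 0.0803) in adult cells. It was 1.6 without adult VM replicate 1, and ranged from 0.53 to 1.7 with each library left out in turn. MiR-148b-3p stood at 0.14 on the log2 scale (SE 0.19, 95% interval -0.28 to 0.56, edgeR adjusted p = 0.571), an interval that leaves room for a difference of either sign.

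In neonatal cells none of the 3 tested members passed in VM against TN, where 9.72% of all miRNAs were called. The log2 fold changes were -0.06 for miR-148a-3p (SE 0.24, 95% interval -0.57 to 0.46, edgeR adjusted p = 0.909), -0.12 for miR-148a-5p (SE 0.43, edgeR adjusted p = 0.893) and -0.25 for miR-148b-3p (SE 0.23, 95% interval -0.76 to 0.26, edgeR adjusted p = 0.593). The sign of the first and second turned under library totals and that of all 3 under upper quartile factors, so no direction is read. Only 1 neonatal TN library was available, and the fit assumes that it varies like the others. DESeq2 and limma voom called 0 members as well, and 0 had an unadjusted edgeR p under 0.05.

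Over both ages 0 of 3 members passed in VM against TN by edgeR, 0 by DESeq2 and 0 by limma voom, and 0 had an unadjusted edgeR p under 0.05, where 24.7% of all miRNAs were called. MiR-148a-3p had a log2 fold change of 0.44 (SE 0.22, 95% interval -0.06 to 0.94, edgeR adjusted p = 0.171), miR-148a-5p of 0.46 (SE 0.39, edgeR adjusted p = 0.418) and miR-148b-3p of -0.02 (SE 0.18, 95% interval -0.42 to 0.39). The value of miR-148a-3p passed under upper quartile factors (0.58, edgeR adjusted p = 0.0373) and, with adult cells alone setting the subset difference, without the neonatal TN library (0.78, edgeR adjusted p = 0.0098).

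Whether the subset difference depends on age was tested as the interaction. For miR-148a-3p the VM against TN log2 fold change was 0.85 less in neonatal than in adult cells (interaction -0.85, SE 0.30, 95% interval -1.51 to -0.19, edgeR adjusted p = 0.111), which did not pass. It passed without adult VM replicate 1 (-0.99, edgeR adjusted p = 0.0095) and, with a smaller difference than in the full fit, without adult VM replicate 2 (-0.57, edgeR adjusted p = 0.0376). Each of these fits leaves adult VM, like neonatal TN, with 1 library that is assumed to vary like the other groups, so neither is read as a call. With the other libraries left out the interaction did not pass, and the edgeR adjusted p reached 0.506. MiR-148a-5p had -1.36 (SE 0.68, edgeR adjusted p = 0.25), and -1.73 with an edgeR adjusted p of 0.0466 without adult VM replicate 1, under the same assumption. MiR-148b-3p had -0.39 (SE 0.30, edgeR adjusted p = 0.496). With all libraries 0 of 3 members passed by edgeR, DESeq2 or limma voom, 1 had an unadjusted edgeR p under 0.05, and 7.99% of all miRNAs were called.

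**Figure D4:**
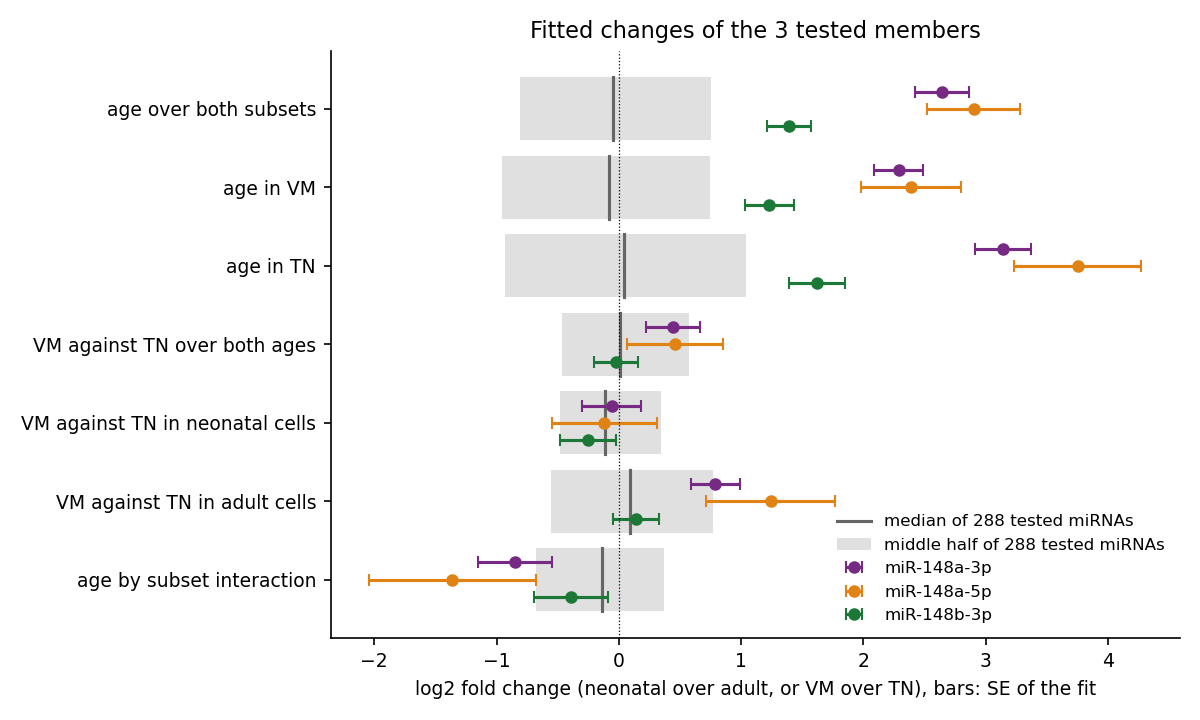
Fitted log2 fold changes of the 3 tested members with their SE in 7 comparisons, neonatal over adult or VM over TN, beside the median and the interquartile range of all 288 tested miRNAs. For age the members lie right of that range, at 1.23 to 3.75, and for VM against TN in neonatal cells they lie within it, at -0.25 to -0.06; the age rows carry no test.

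Across the 7 libraries the arms of one hairpin lay closer to each other than did miR-148a-3p and miR-148b-3p, which share a seed. Some miRNAs outside the family lay closer still to each of these, so closeness within a hairpin is not read as a trait of the family. Likeness was measured as the root mean square difference of log2 CPM, with a prior count of 2, each miRNA centred on its own mean. It was 0.30 between the arms of miR-148a and 0.34 between the arms of miR-148b, and 0.71 between miR-148a-3p and miR-148b-3p. Outside the family the miRNAs nearest to miR-148a-3p were miR-210-5p (0.27), miR-677-5p (0.30), miR-181d-5p (0.36), miR-210-3p (0.47) and miR-181c-3p (0.51). Nearest to miR-148b-3p were miR-501-3p (0.12), miR-363-3p (0.22), miR-1981-5p (0.26), miR-181c-3p (0.26) and miR-181c-5p (0.27). The prior count pulls the differences of scarce miRNAs together, and miR-148a-5p, miR-210-5p, miR-677-5p and miR-210-3p were under 10 CPM in every adult library. These met the filter only through the neonatal libraries, where they were high. Their shared age profile with miR-148a-3p was thus partly set by the filter, and their likeness to it is no support. The part of the prior count in that likeness was not tested. MiR-210-5p stood at 15.7 ± 0.469 CPM in neonatal (n = 3) and 1.23 ± 0.332 CPM in adult libraries (n = 4), while miR-181d-5p stood at 3819 ± 409 CPM in neonatal and 896 ± 160 CPM in adult libraries. Of the 5 nearest to miR-148a-3p, 3 stayed without neonatal TN or without adult TN replicate 1. These are descriptions over 7 libraries that share the age contrast.

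Other miRNAs known to be directed at DNA methyltransferases changed with age in both directions, as the tested miRNAs did as a whole. They were listed with earlier results of these data known, so their counts and p-values, by age and by subset, are descriptions and no support. So small a list was not tested against the background of all miRNAs, and its counts are not read as a trait of the list. Of 9 listed, 4 fell and 2 rose with neonatal age and 3 did not pass, where 53.8% of all miRNAs were called, 26.4% higher and 27.4% lower (76 and 79 miRNAs, or 119 and 53 under library totals). The list's median log2 fold change was -0.45, against -0.05 for all tested miRNAs. Among them miR-29a-3p and miR-29c-3p, which repress Dnmt3a and Dnmt3b, had log2 fold changes of -2.84 (SE 0.18, edgeR adjusted p = 9.04e-06) and -2.01 (SE 0.19). MiR-29a-3p stood at 2148 ± 22.3 CPM in neonatal VM and 1644 CPM in neonatal TN, against 14216 ± 1296 CPM in adult VM and 13219 ± 1230 CPM in adult TN. MiR-101a-3p, best known for repressing the histone methyltransferase Ezh2 and listed for a link to DNMT3A described in human cells, had -2.14 (SE 0.31), and miR-143-3p, known to repress Dnmt3a, 1.82 (SE 0.51, edgeR adjusted p = 0.0163). Both that rose, miR-143-3p and, named after its value was seen, miR-126a-3p (1.28, SE 0.34, edgeR adjusted p = 0.0122), also stand among the stromal and endothelial markers below. MiR-126a-3p stood at 15.5 ± 0.473 CPM in neonatal VM and 7.16 CPM in neonatal TN, against 5.33 ± 2.15 CPM in adult VM and 4.14 ± 1.01 CPM in adult TN, so it met the filter only through the neonatal VM libraries, where it was high, and its call is no support. The count of 2 was 1 without either adult TN, either neonatal VM or the neonatal TN library, and 0 with a filter of 100 CPM, which neither miRNA meets. The call of miR-143-3p was lost without adult TN replicate 1 (log2 fold change 1.40, edgeR adjusted p = 0.0521), adult TN replicate 2 (1.62, edgeR adjusted p = 0.0579) or the neonatal TN library (0.86, edgeR adjusted p = 0.0753). In VM against TN over both ages 2 of the 9 rose and 0 fell, where 10.8% of all miRNAs were called higher and 13.9% lower (31 and 40 miRNAs, or 59 and 27 under library totals and 58 and 25 with upper quartile factors). These were miR-101a-3p (1.48, SE 0.30) and miR-29c-3p (1.05, SE 0.18), and miR-101a-3p did not pass without adult TN replicate 1 (1.32, edgeR adjusted p = 0.0858) or replicate 2 (1.37, edgeR adjusted p = 0.0756), with a fold of similar size. MiR-29b-3p (1.04, edgeR adjusted p = 0.0726) and miR-185-5p (1.0, edgeR adjusted p = 0.0765), which represses Dnmt1, did not pass. The subset count of 2 was 5 under library totals and 1 to 6 with a library left out.

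Other miRNAs known to be directed at Bim, mostly of the miR-17 to miR-92a and related clusters, went both ways with age. The tested miRNAs did so as a whole. This list too was written with earlier results known, and its counts and p-values are descriptions. They were not tested against the background and are not read as a trait of the list. Of 10 listed, 1 rose, 2 fell and 7 did not pass, where 26.4% of all miRNAs were called higher and 27.4% lower. The list's median log2 fold change was -0.04. MiR-363-3p, of the X-linked miR-106a cluster, rose (1.19, SE 0.16), miR-32-5p fell (-1.47, SE 0.27) and miR-92a-3p fell (-0.48, SE 0.15, edgeR adjusted p = 0.0243). The value of miR-92a-3p was -0.02 under library totals, where 4 of the list were higher and 1 lower, and it did not pass without adult VM replicate 1 (edgeR adjusted p = 0.0876) or neonatal VM replicate 2 (0.0933), with the replicate block (0.0621) or with a filter of 100 CPM (0.0741). MiR-25-3p, with the same seed as miR-92a-3p, had -0.41 (SE 0.17, edgeR adjusted p = 0.0737). By subset 1 of 10 rose and 0 fell, where 10.8% of all miRNAs were called higher and 13.9% lower. It was miR-106b-5p (0.65, SE 0.17, edgeR adjusted p = 0.0308), which did not pass with the replicate number as a block (edgeR adjusted p = 0.0784) or without either adult VM, adult TN or neonatal VM replicate (0.0517 to 0.12). MiR-19a-3p (0.93, edgeR adjusted p = 0.065), miR-19b-3p (0.79, edgeR adjusted p = 0.0538) and miR-20a-5p (0.73, edgeR adjusted p = 0.107), of the miR-17 cluster, did not pass. The list counts were 4 higher by subset under library totals, and 0 to 5 higher by subset and 1 to 4 lower by age with a library left out. The median by subset was 0.46 for this list and 0.94 for the other, where that of all tested miRNAs was 0.01.

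Markers of other cells were read beside the age difference. The 6 endothelial and stromal markers, of which miR-145a-5p was at 0 in 6 libraries, summed to 124 to 154 CPM in neonatal and 22.7 to 75.8 CPM in adult libraries, and so moved with age. The 5 erythroid markers summed to 156 to 446 CPM in neonatal and 243 to 594 CPM in adult libraries. Most of that sum was miR-486a-5p and miR-486b-5p, at 76.9 to 294 and 75.8 to 295 CPM over all libraries. MiR-451a stood at 2.14 to 9.65 CPM, and miR-144-3p and miR-144-5p were at 0 in 4 and 5 libraries. The 2 myeloid markers summed to 0.990 to 4.18 CPM in neonatal and 1.71 to 15.9 CPM in adult libraries. The hepatocyte markers miR-122-5p, miR-122-3p and miR-802-5p were all at 0 in the 3 neonatal libraries. In adult libraries miR-122-5p reached 1.08 CPM in 1 library and the others were at 0. The 3 epithelial markers summed to 241 to 298 CPM in neonatal and 282 to 482 CPM in adult libraries. Most of that sum was miR-141-3p (228 to 461 CPM over all libraries), with miR-200c-3p at 7.06 to 22.7 CPM and miR-375-3p at 0 to 5.29 CPM. The part of the endothelial and stromal markers, or of any other cell type listed here, in the age difference was not tested. No list of B cell markers was read. In bulk samples, fewer cells of a type and less RNA per cell cannot be told apart.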

How the data were processed

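Small RNA libraries (Illumina TruSeq, size selected) were made from sorted CD8+ T cells, per the labels' protocols. The authors deposited estimated counts for each mature miRNA and precursor; no aligner or counter is named in the sources used here, and mm10 is the build per the submitters' processing notes. Lines were summed per mature name and rounded, by at most 0.5; of nonzero sums, 84.0% lay within 0.02 of a whole number. Each member stood on 1 line.

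MiRNAs that reached 10 CPM in 2 or more libraries entered edgeR 4.0.16 (R 4.3.3) with TMM factors, robust dispersions and Benjamini-Hochberg adjustment at 0.05. Averages came from an additive model of age and subset (4 residual degrees of freedom), the others from a cell means model (3). Intervals use the test's degrees of freedom. Members and lists were chosen with earlier results of these data known. Named were all members, their other arms, the 4 largest changes per list and average, and the 5 nearest miRNAs. The method was also run on counts simulated with the fitted dispersions of these data. No age contrast was simulated, and no result here rests on that run. Alternatives were RLE, upper quartile and library total scaling, filters, DESeq2 1.42.0, limma voom 3.58.1, non-robust dispersions, a replicate block, adult libraries alone, the largest line per name, and each library left out. Sequences are from RefSeq and host genes from GENCODE M21; 1679 of 1978 names matched. Target genes were not analysed here.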

Additional observations from a re-analysis of the deposited data

How the results depend on the processing

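All age differences of the 3 tested members kept their sign in every setting run. Under library totals, which raised the median of all miRNAs by 0.45 over both subsets, 0.37 in TN and 0.51 in VM, they were 3.08 for miR-148a-3p and 1.84 for miR-148b-3p over both subsets, 3.49 and 1.99 in TN, and 2.80, 1.74 and, for miR-148a-5p, 2.90 in VM (log2). With the 100 CPM filter they were 2.79 and 1.55 over both subsets and 2.51 and 1.45 in VM. In TN they were 2.83 and 1.31 with upper quartile factors and 2.95 and 1.44 without a filter. With each library left out, the values over both subsets lay between 2.31 and 2.81 for miR-148a-3p, 2.41 and 3.39 for miR-148a-5p and 1.23 and 1.47 for miR-148b-3p; in TN between 2.96 and 3.11, 3.31 and 4.13, and 1.34 and 1.67; in VM between 2.12 and 2.53, 1.98 and 3.04, and 1.15 and 1.35.

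Small subset differences changed sign. In neonatal cells miR-148a-3p was 0.01 with RLE factors, no filter and DESeq2, 0.19 under library totals and 0.32 with upper quartile factors, and -0.10 to 0.03 with libraries left out. MiR-148a-5p was 0.12 and 0.26 under library totals and upper quartile factors, and -0.16 to 0.01 with libraries left out; miR-148b-3p was 0.13 with upper quartile factors. Over both ages miR-148b-3p was 0.15, 0.12 and 0.01 under library totals, upper quartile factors and no filter, and -0.21 to 0.14 with libraries left out. In adult cells it was -0.13 to 0.27. Its interaction was 0.01 with upper quartile factors, that of miR-148b-5p 0.11, and the age value of miR-25-3p, -0.41 with TMM, was 0.04 under library totals. MiR-148a-3p by subset was 0.58 with upper quartile factors and past the threshold; with libraries left out it was 0.19 to 0.78 over both ages, 0.48 to 0.92 in adult cells and -0.99 to -0.57 in the interaction. MiR-148a-5p was 0.06 to 1.23 over both ages, 0.53 to 1.70 in adult cells and -1.74 to -0.68 in the interaction.

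Counts of all called miRNAs, the background above, moved more. VM against TN over both ages had 71, 41 with the 100 CPM filter, 42 with the replicate block and 18 to 111 with libraries left out. In neonatal cells there were 28, 53 without a filter, 52 with upper quartile factors and 16 to 77. The interaction had 23, 37 with DESeq2, 43 without a filter and 6 to 86. Age over both subsets had 155, 79 with the 100 CPM filter and 115 to 158, and VM against TN in adult cells 112 and 23 to 142. The cause was not tested. The replicate numbers were not shown to pair samples: differences between replicates 1 and 2 had r of 0.0165, 0.138 and -0.16 between groups across 288 miRNAs. The block changed no call of a member. MiR-148a-5p missed the 100 CPM filter, and comparisons with neonatal TN gave no value without that library.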
